A study of Homo sapiens with 2 samples.

Results

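FERM domains are protein modules that bind the inner face of the plasma membrane and the tails of membrane proteins. 10 genes of this superfamily are described here, namely FRMD4B, its paralog FRMD4A, FRMD6, FRMD8, EZR, RDX, MSN, NF2, EPB41L2 and EPB41L5, out of 58051 genes in the deposited tables. They were listed by symbol, and all 10 were found. The list was drawn up around FRMD4B because its count differed so widely between the libraries, so its values and those of its relatives are given as a description and no test is built on them.

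RNA was sequenced from 1 library of TRPV3-OE cells, which are BEAS-2B cells that overexpress the calcium-permeable cation channel TRPV3, and from 1 library of the parental line, labelled WT. BEAS-2B is an immortalised line of human bronchial epithelium. Both cultures were untreated, grown in LHC-9 medium on a collagen and fibronectin coat, and collected at confluence. The TRPV3-OE cells were between passage 4 and 8 and the parental cells between passage 20 and 30, so that passage and overexpression cannot be told apart. The promoter and vector of the transgene, and whether the line is 1 clone, are not stated in the labels. Since each group is 1 library, no p-value can be given and no difference could be checked in a second culture; each interval is an exact 95% interval that covers counting error only. PCR reads without molecular identifiers are not independent molecules.

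Total counts were 17477953 in the TRPV3-OE library and 17450658 in the parental library. TRPV3 (chromosome 17) had 54077 counts in the TRPV3-OE library and 26 in the parental library, in the direction that the labels state. All 7 airway epithelial markers looked at, among them KRT5, EPCAM and CDH1, were present in both libraries, with 4184 counts per 1000000 counts (CPM) summed over the 7 in TRPV3-OE and 3898 in parental cells. Of the blood markers, PTPRC, CD3E and HBB had 0 counts in both libraries and CD68 had 1 in each. The 5 fibroblast markers summed to 16.2 CPM in TRPV3-OE and 24.3 CPM in parental cells, nearly all of it COL1A1, with LUM at 0 in both. The 3 endothelial markers summed to 3.26 CPM in TRPV3-OE and 16.7 CPM in parental cells, nearly all of it CDH5 in the parental library, and the part of this difference in the results below was not tested. In such bulk samples, fewer cells that carry a transcript and less of it per cell cannot be told apart.

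Ezrin, radixin and moesin, encoded by EZR, RDX and MSN, tie actin filaments to the membrane: the FERM domain holds a membrane protein, and the far end of the molecule holds actin once a threonine near that end is phosphorylated. In epithelia, ezrin is best known from microvilli on the apical surface, while moesin is more typical of leukocytes and endothelium. Merlin, the product of NF2, is a close relative that restrains growth at cell contacts through the Hippo pathway. FRMD4A and FRMD4B are scaffolds that bind cytohesins, the exchange factors that activate the small GTPase ARF6, and FRMD4A links them to the polarity protein PAR3.

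The ends of the EZR, RDX and MSN coding sequences are shown because they hold the actin-binding tail with that threonine, and because they show how far reads of these 3 genes can be told apart. Each stretch is the last 27 codons, stop codon included, of a GENCODE 29 transcript (GRCh38; EZR on chromosome 6, RDX on chromosome 11, MSN on chromosome X). Capitals mark the 20 of 81 bases that are not the same in all 3 genes. The threonine codon is at bases 19 to 21, and it is codon 567 of EZR, 564 of RDX and 558 of MSN.
EZR: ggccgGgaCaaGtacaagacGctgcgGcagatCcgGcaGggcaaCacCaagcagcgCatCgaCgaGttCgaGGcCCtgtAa
RDX: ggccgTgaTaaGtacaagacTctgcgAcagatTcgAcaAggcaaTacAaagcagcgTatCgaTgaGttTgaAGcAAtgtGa
MSN: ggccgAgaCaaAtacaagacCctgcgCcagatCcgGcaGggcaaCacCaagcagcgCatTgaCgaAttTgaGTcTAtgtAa
EZR and MSN differed at 10 of the 81 bases, EZR and RDX at 16, and RDX and MSN at 18. Over the whole coding sequence 74.7% of aligned bases were identical between EZR and MSN, 71.9% between RDX and MSN and 70.5% between EZR and RDX. The longest run of identical bases was 32, between EZR and MSN. FRMD4A and FRMD4B had 64.0% of aligned coding bases in common, with a longest run of 20. No window of 50 bases was shared between the transcripts of any 2 of the 10 genes. Genes outside the 10 shared more: 3.58% of the MSN windows were also in MSNP1, and 2.99% of the FRMD8 windows were in another gene, nearly all of them in FRMD8P1. For RDX the share was 2.86%, most of it with AC006210.2, and for NF2 it was 1.90%, spread over 79 genes. MSNP1 had 3 counts in each library, and FRMD8P1 had 2 in the TRPV3-OE library and 0 in the parental one. The pseudogene RDXP1 had 0 counts in TRPV3-OE and 1 in parental cells, and RDXP2 had 0 in both. Counts of AC006210.2, which shared most with RDX, are not given here.

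FRMD4B (ENSG00000114541, chromosome 3, 69169990 to 69542583, minus strand, GRCh38) encodes a scaffold also known as GRSP1, which binds cytohesin 3. It had 7169 counts in the TRPV3-OE library and 304 in the parental library. After scaling, this was 403 CPM (393 to 412) in TRPV3-OE cells and 17.7 CPM (15.8 to 19.9) in parental cells. The TRPV3-OE level was thus 22.7-fold higher, with a log2 ratio of 4.50 (4.34 to 4.67). Its rank by log2 ratio was 5 among the 8745 protein-coding genes whose 2 counts added up to 500 or more, TRPV3 included. By gain in CPM it ranked 19 among the 11466 measured genes, which are those with at least 100 summed counts.

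Its paralog FRMD4A (ENSG00000151474, chromosome 10, 13643706 to 14462142, minus strand) differed the other way. It had 77 counts in TRPV3-OE cells, against 212 in parental cells, or 4.32 CPM (3.41 to 5.40) and 12.4 CPM (10.8 to 14.2). The log2 ratio was -1.52 (-1.91 to -1.13), which is 2.86-fold lower in TRPV3-OE. Levels per length are given as transcripts per 1000000 (TPM), with the summed exon length of each gene as its length. By TPM, FRMD4B was 124-fold above FRMD4A in the TRPV3-OE library and 1.91-fold above it in the parental library.

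Calls of higher or lower needed a ratio beyond 2-fold whose whole interval fell on the same side of 1. Among the 10 genes FRMD4B was the 1 called higher, where 5.31% of all measured genes were, and FRMD4A and MSN were the 2 called lower, where 5.35% of all measured genes were. The genes were chosen on this comparison, and nothing is read from these shares. The remaining 7 had log2 ratios between -0.93 for EZR and 0.47 for EPB41L5. The median over the 10 was -0.06, against -0.03 over all measured genes.

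**Figure D1:**
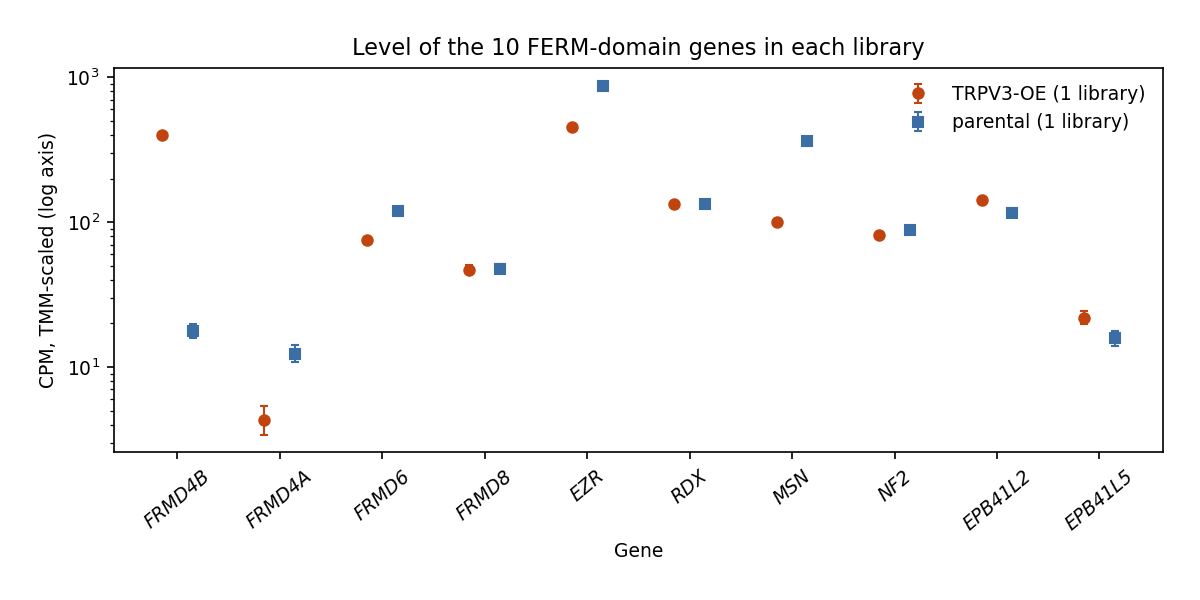
CPM (log axis) of each of the 10 genes in the TRPV3-OE library (circles, left of each pair) and the parental library (squares, right), with exact Poisson 95% intervals. FRMD4B stands at 403 CPM in TRPV3-OE and 17.7 CPM in parental cells, MSN at 101 and 364 CPM, and RDX and FRMD8 nearly coincide.

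Of the 3 genes for ezrin, radixin and moesin, MSN was called lower in TRPV3-OE cells, EZR was inside the 2-fold limit, and RDX had nearly the same level in both libraries. MSN (ENSG00000147065, chromosome X, 65588377 to 65741931, plus strand) had 1791 counts in TRPV3-OE and 6237 in parental cells. That is 101 CPM (96.0 to 105) in TRPV3-OE and 364 CPM (355 to 373) in parental cells, a log2 ratio of -1.86 (-1.93 to -1.78) and a 3.62-fold lower level. Of all measured genes 1.63% had a lower log2 ratio than MSN.

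EZR (ENSG00000092820, chromosome 6, 158765741 to 158819412, minus strand) was the most abundant of the 10 genes per length in both libraries. It had 8097 counts in TRPV3-OE cells and 14819 in parental cells, or 455 CPM (445 to 465) and 865 CPM (851 to 879). The log2 ratio of -0.93 (-0.97 to -0.89) lies just inside the 2-fold limit, at 1.90-fold lower. In absolute terms EZR had the largest difference of the 10 genes, a CPM difference of -411 between TRPV3-OE and parental cells, against 385 for FRMD4B. CPM are not scaled by gene length. The TPM difference was -419 for EZR, -156 for MSN and 145 for FRMD4B.

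RDX (ENSG00000137710, chromosome 11, 110174880 to 110296722, minus strand) had 2390 counts in TRPV3-OE cells and 2282 in parental cells, at 134 and 133 CPM. Its log2 ratio was 0.01 (-0.07 to 0.09). A difference of more than 1.07-fold in either direction is outside that interval, as far as counting error goes.

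Summed over EZR, RDX and MSN, the level was 652 TPM in the TRPV3-OE library and 1222 TPM in the parental library. EZR made up 78.5% of the sum in TRPV3-OE and 76.1% in parental cells. RDX made up 11.8% in TRPV3-OE and 5.94% in parental cells, and MSN 9.72% in TRPV3-OE and 17.9% in parental cells. The order of RDX and MSN therefore differed between the libraries: MSN stood at 0.827 times RDX in TRPV3-OE cells and at 3.02 times RDX in parental cells. These shares rest on the summed exon length of each gene (3342 bases for EZR, 6592 for RDX, 5971 for MSN). With the length of the longest coding transcript of GENCODE 29 in its place, the RDX share was 14.8% in TRPV3-OE and 7.38% in parental cells, and the MSN share 12.6% in TRPV3-OE and 23.0% in parental cells.

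**Figure D2:**
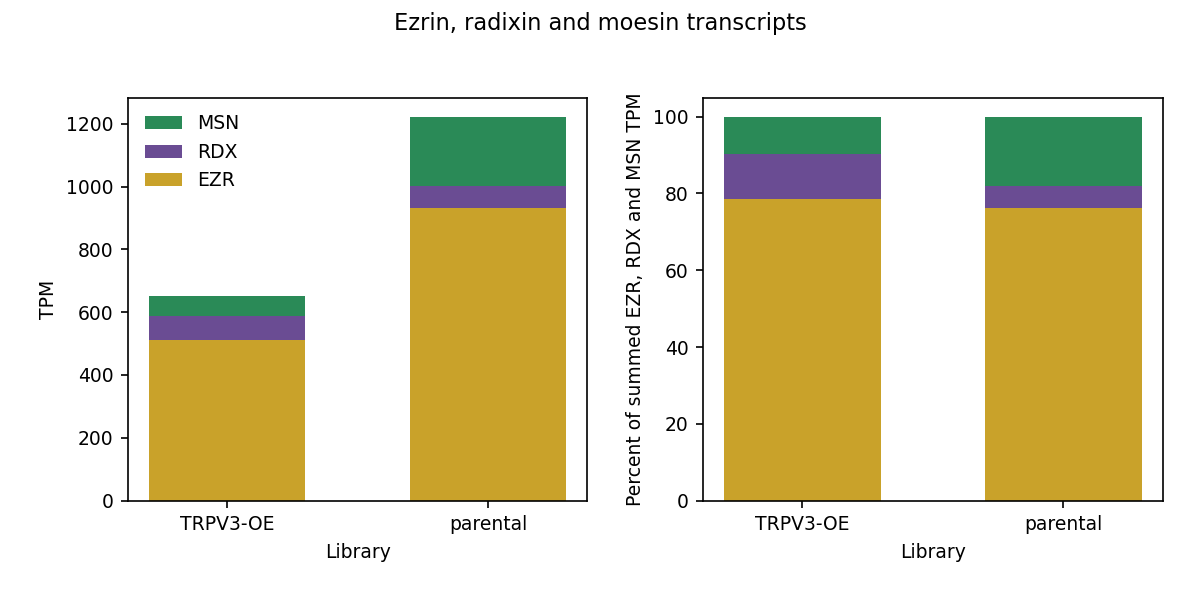
Left, summed level of EZR, RDX and MSN in TPM in the TRPV3-OE library (left bar) and the parental library (right bar), stacked by gene. Right, the same as percent of the sum, where RDX takes 11.8% in TRPV3-OE and 5.94% in parental cells and MSN takes 9.72% in TRPV3-OE and 17.9% in parental cells. There is 1 library per bar and no error bar is drawn.

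NF2 and FRMD6 are the members tied to growth control. NF2 (ENSG00000186575, chromosome 22, 29603556 to 29698598, plus strand) had 1456 counts in TRPV3-OE cells and 1504 in parental cells, with 81.8 and 87.8 CPM and a log2 ratio of -0.10 (-0.21 to 0.00). FRMD6 (ENSG00000139926, chromosome 14, 51489100 to 51730727, plus strand), which encodes willin, a relative of the Drosophila growth regulator Expanded, had 1333 counts in TRPV3-OE cells and 2049 in parental cells. Its level was 74.9 CPM (70.9 to 79.0) in TRPV3-OE and 120 CPM (115 to 125) in parental cells, a log2 ratio of -0.68 (-0.78 to -0.58), or 1.60-fold lower.

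FRMD8 (ENSG00000126391, chromosome 11, 65386599 to 65413525, plus strand) holds the iRhom proteins and the shedding protease ADAM17 at the cell surface. It had 836 counts in TRPV3-OE cells and 819 in parental cells, with 46.9 and 47.8 CPM and a log2 ratio of -0.03 (-0.17 to 0.11).

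The 2 genes of the protein 4.1 family had small positive log2 ratios. EPB41L2 (ENSG00000079819, chromosome 6, 130839347 to 131063322, minus strand), the widely expressed 4.1G that joins spectrin and actin under the membrane, had 2539 counts in TRPV3-OE and 1988 in parental cells, a log2 ratio of 0.30 (0.21 to 0.38). EPB41L5 (ENSG00000115109, chromosome 2, 120013005 to 120179119, plus strand) binds Crumbs polarity proteins and is needed for epithelial-to-mesenchymal transition in mouse gastrulation. It had 390 counts in TRPV3-OE and 270 in parental cells, at 21.9 CPM (19.8 to 24.2) and 15.8 CPM (13.9 to 17.8), and its log2 ratio was 0.47 (0.25 to 0.70). Neither passed 2-fold.

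Per length, the order of the 10 genes in the TRPV3-OE library was EZR (512 TPM), FRMD4B (152), RDX (76.6), MSN (63.3), EPB41L2 (52.3), FRMD8 (43.2), NF2 (42.9), FRMD6 (29.9), EPB41L5 (8.87) and FRMD4A (1.22 TPM). In the parental library it was EZR (931 TPM), MSN (219), RDX (72.6), FRMD6 (45.7), NF2 (44.0), FRMD8 (42.0), EPB41L2 (40.7), FRMD4B (6.38), EPB41L5 (6.10) and FRMD4A (3.34 TPM). FRMD4B was thus second in TRPV3-OE cells and eighth in parental cells. Both orders rest on the summed exon length of each gene, and another length was tried only for EZR, RDX and MSN. The counting intervals of FRMD8 and NF2 overlapped in TRPV3-OE cells. In parental cells those of each neighbouring pair from FRMD6 through NF2 and FRMD8 to EPB41L2 did, as did those of FRMD4B and EPB41L5. FRMD4B took 15.4% of the summed TPM of the 10 genes in the TRPV3-OE library and 0.453% in the parental library. The sum itself was 981 TPM in TRPV3-OE and 1411 TPM in parental cells. Against all measured genes, FRMD4B was at percentile 89.9 of TPM in TRPV3-OE cells and 14.8 in parental cells, and MSN at percentile 73.4 in TRPV3-OE and 93.7 in parental cells.

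**Figure D3:**
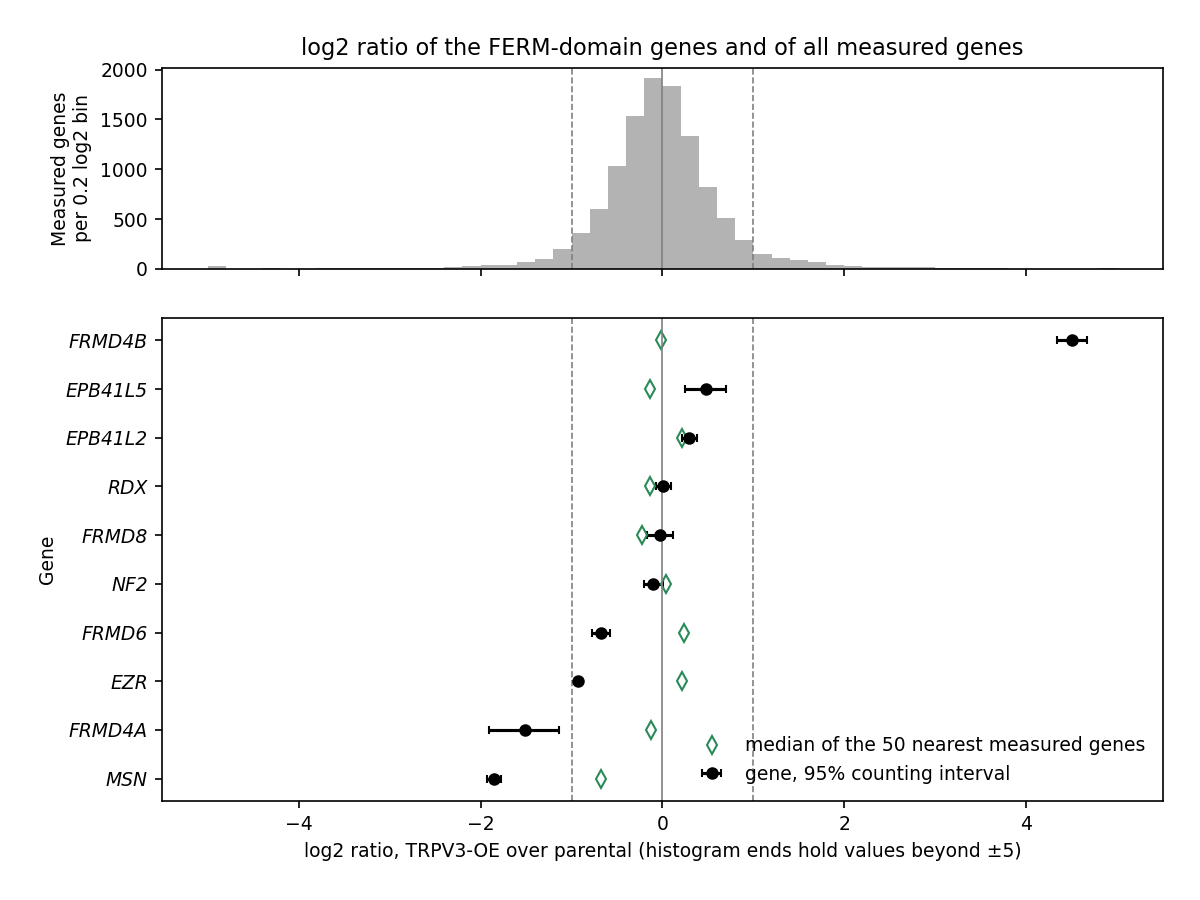
Top, histogram of the log2 ratio (TRPV3-OE over parental) of the measured genes. Bottom, log2 ratio of each of the 10 genes with its 95% counting interval (filled circles) and the median of its 50 nearest measured genes (open diamonds), with dashed lines at 2-fold. FRMD4B stands at 4.50 while its neighbours have a median of -0.01, and MSN at -1.86 while its neighbours have a median of -0.68.

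Each gene was also set against its chromosomal surroundings. The 50 measured genes nearest to FRMD4B had a median log2 ratio of -0.01, so that its log2 ratio less that median was 4.52. The next measured gene on one side, ARL6IP5, had 1497 counts in TRPV3-OE and 1669 in parental cells (log2 ratio -0.21). The next on the other side was MITF, the melanocyte-lineage transcription factor, with 250 counts in TRPV3-OE and 104 in parental cells (log2 ratio 1.21, 0.87 to 1.55). The orphan receptor gene GPR27, the fourth measured gene on that side, had 91 counts in TRPV3-OE and 11 in parental cells (2.99, 2.09 to 4.04). Of the 50 genes drawn around FRMD4B, 6 were called higher and 1 lower, where 5.31% and 5.35% of all measured genes were. The 1 called lower was PTPRG, which was also the farthest from 0 of the 50. It had 1 count in TRPV3-OE and 190 in parental cells (log2 ratio -7.63, -12.9 to -5.13). MITF, GPR27 and PTPRG were named after their values were seen. The part of these surroundings in the FRMD4B value was not tested.

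Around MSN the 50 nearest genes had a median of -0.68. Of the 50 genes drawn around it, 7 were called lower and 1 higher, against 5.35% and 5.31% of all measured genes. The part of this regional difference in the MSN value was not tested. Less that median the log2 ratio of MSN was -1.18, still past 2-fold. For EZR and FRMD6 the medians of the neighbouring genes were above 0 (0.22 and 0.24). Their log2 ratios less those medians were -1.15 and -0.92, which puts EZR past 2-fold and leaves FRMD6 inside it. FRMD4A less its local median was at -1.39, EPB41L5 at 0.61, EPB41L2 at 0.08, RDX at 0.15, FRMD8 at 0.20 and NF2 at -0.14. Around FRMD4A, 10 of the 50 measured genes taken 25 to a side were called lower and 0 higher. The part of these surroundings in the FRMD4A value was not tested.

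**Figure D4:**
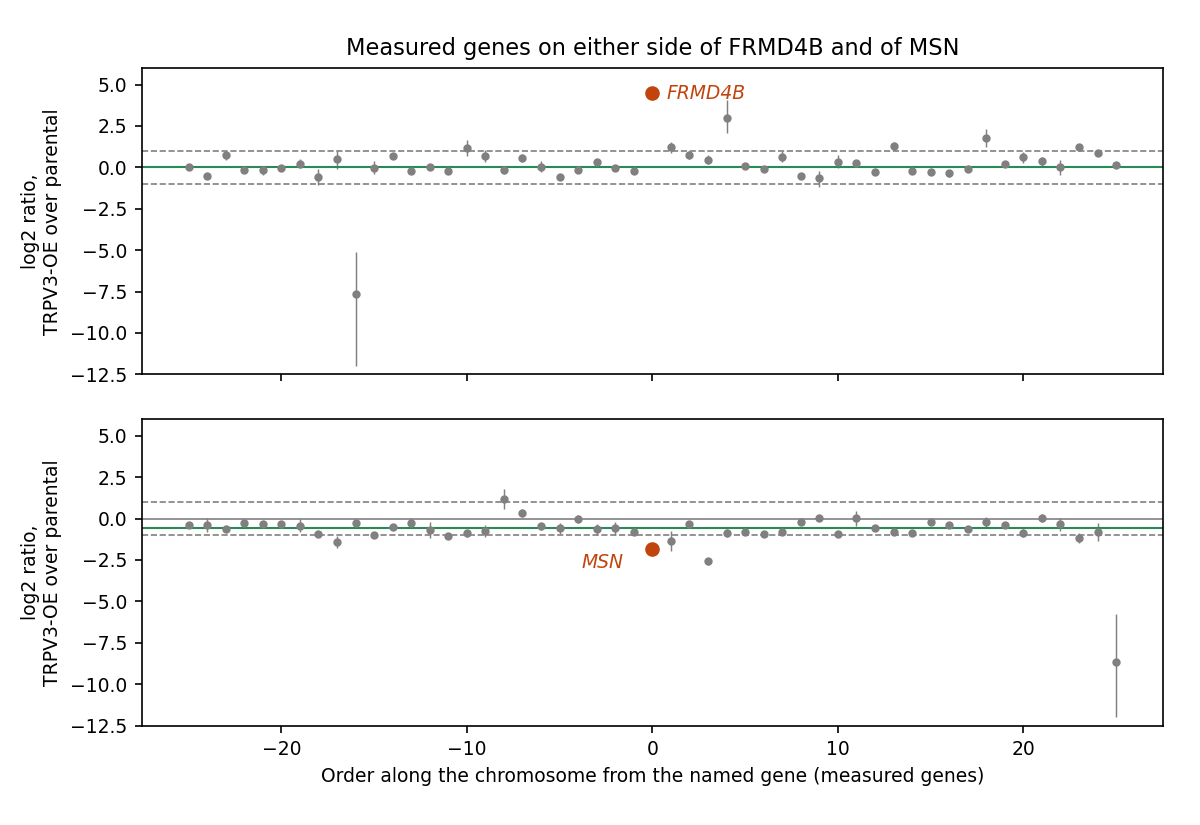
log2 ratio (TRPV3-OE over parental) of the 25 measured genes on either side of FRMD4B (top) and of MSN (bottom), in order along the chromosome, with 95% counting intervals that stop short of the lower axis where they would run past it. The large points are the named genes and the green lines the medians of the neighbours drawn (0.03 around FRMD4B, -0.59 around MSN). FRMD4B at 4.50 is above every neighbour drawn, while most neighbours of MSN are below 0.

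The upstream sequences of FRMD4B and MSN are shown as those of the genes with the highest and the lowest ratio of the 10. They are the 250 bases before each RefSeq start (GRCh38.p14), and capitals mark the GC box, GGGCGG on either strand, a motif bound by SP-family factors. The FRMD4B window precedes a start that lies inside the gene span given above and not at its outermost 5′ end, and the second MSN window likewise lies inside the MSN span. The gene counts do not say which start was used.
FRMD4B promoter, chr3:69386089-69386338, minus strand: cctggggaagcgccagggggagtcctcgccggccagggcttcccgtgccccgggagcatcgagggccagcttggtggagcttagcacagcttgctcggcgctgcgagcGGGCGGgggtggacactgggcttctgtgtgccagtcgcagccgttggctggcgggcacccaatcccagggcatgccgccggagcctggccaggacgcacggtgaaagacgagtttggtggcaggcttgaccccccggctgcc
MSN promoter, chrX:65588127-65588376, plus strand: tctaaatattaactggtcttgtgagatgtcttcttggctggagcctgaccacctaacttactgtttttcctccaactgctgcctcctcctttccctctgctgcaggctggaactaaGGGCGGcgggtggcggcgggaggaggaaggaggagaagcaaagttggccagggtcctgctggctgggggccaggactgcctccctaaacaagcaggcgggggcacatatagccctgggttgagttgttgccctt
MSN promoter, chrX:65667404-65667653, plus strand: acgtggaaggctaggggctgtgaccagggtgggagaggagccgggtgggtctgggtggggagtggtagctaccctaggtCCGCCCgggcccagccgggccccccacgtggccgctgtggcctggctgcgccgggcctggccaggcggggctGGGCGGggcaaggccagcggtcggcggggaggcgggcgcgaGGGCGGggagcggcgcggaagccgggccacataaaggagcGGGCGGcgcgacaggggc
FRMD4B held 1 GC box, the first MSN start 1 and the second 4, where 42.6% of 35116 RefSeq windows of this length held at least 1. A search of the same 3 windows for CACCTG (an E-box bound by ZEB and SNAIL factors, in 17.5% of windows), the AP-1 site TGANTCA (in 6.57%) and the core promoter element TATAAA (in 10.7%), on both strands, found no match. Since no other motif was found there, none overlapped a GC box.

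Among those 8745 protein-coding genes, the 5 whose log2 ratio was nearest to that of FRMD4B were PRKAA2 (4.17), PKP1 (4.86), PPP1R16B (5.03), IP6K3 (5.07) and SLPI (3.68). They differed from it by 0.34, 0.36, 0.52, 0.56 and 0.82 on the log2 scale, over 2 libraries. Their TRPV3-OE counts were 1868, 544, 1424, 802 and 748, against 7169 for FRMD4B. These counts are not scaled by gene length, so they do not order the genes by level.

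The counts of called genes in the lists that follow stand beside shares of 5.31% higher and 5.35% lower over all measured genes, and their medians beside -0.03. Among the other FERM-domain genes, 27 of 43 were measured, of which 2 (7.41%) were at least 2-fold higher and 1 (3.70%) lower, near the shares over all genes, with a median log2 ratio of 0.08. EPB41L4B, another protein 4.1 relative, had 850 counts in TRPV3-OE and 286 in parental cells (log2 ratio 1.52, 1.32 to 1.71). PLEKHH3, a protein with pleckstrin homology and FERM domains, had 1358 and 578 counts in TRPV3-OE and parental cells (1.18, 1.03 to 1.32). FARP2 had 457 in TRPV3-OE and 907 in parental cells (-1.05, -1.21 to -0.88). The phosphatase gene PTPN21 stayed inside 2-fold at -0.97. Less the median of their neighbours PLEKHH3 was at 0.99 and FARP2 at -0.66, both inside 2-fold, and EPB41L4B at 1.48. Among the 27 measured genes of this list the largest log2 ratio was 1.52, where FRMD4B, picked for its wide difference, had 4.50. The other 16 genes fell below the minimum of 100 summed counts, so that this maximum does not cover them. Among them FRMPD2 had 14 counts in TRPV3-OE and 0 in parental cells, a log2 ratio of 4.75 with a lower bound of 1.67. MYO15A, with 7 in TRPV3-OE and 0 in parental cells, also had an interval above 0. TLN2 (27 in TRPV3-OE and 46 in parental cells) and JAK3 (9 and 22) had intervals below 0.

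Of the cytohesin, ARF6 and PAR polarity partners of FRMD4A and FRMD4B, 1 of 14 measured members (7.14%) was called higher and 3 (21.4%) lower, against 5.31% and 5.35% of all measured genes, with a median of -0.21. CYTH3, the cytohesin that FRMD4B binds, had 1098 counts in TRPV3-OE and 2322 in parental cells, 2.20-fold lower (log2 ratio -1.14, -1.24 to -1.03), or -1.04 less its local median. The other measured cytohesins CYTH1 (0.01) and CYTH2 (-0.37), their target ARF6 (-0.12) and the PAR3 gene PARD3 (-0.03) were inside 2-fold. TIAM1, a RAC exchange factor that binds PAR3, was 3.18-fold higher in TRPV3-OE, with 750 counts, against 227 in parental cells. The PAR6 gene PARD6G (-1.25) and CCDC120 (-1.02), which encodes another cytohesin-binding protein, were called lower, but stood at -0.80 and -0.28 less their local medians.

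In the list of membrane partners and kinases of ezrin, radixin and moesin, 0 of 18 measured members were higher and 3 (16.7%) lower, against 5.31% and 5.35% of all measured genes, with a median of -0.38. PODXL, the sialomucin podocalyxin that ezrin holds through NHERF adaptors, had 25 counts in TRPV3-OE and 593 in parental cells (log2 ratio -4.62, -5.26 to -4.05). CD44, the hyaluronan receptor and a direct ezrin, radixin and moesin partner, had 2256 counts in TRPV3-OE and 6020 in parental cells (-1.47, -1.54 to -1.40), or -0.75 less its local median. The third gene called lower was MSLN at -2.74, whose product mesothelin is anchored by a lipid and has no cytoplasmic tail to bind a FERM domain. The adaptor gene NHERF1 (0.27) and the kinase genes ROCK1 (0.38) and ROCK2 (-0.27) were inside 2-fold, as was NHERF2 (-0.68).

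For the iRhom and ADAM17 partners of FRMD8, 0 of 7 measured members were higher and 2 (28.6%) lower, against 5.31% and 5.35% of all measured genes. The median was -0.31, and 0.20 less the local medians. The sheddase gene ADAM17 (-0.10, -0.22 to 0.01) and the iRhom gene RHBDF2 (-0.09, -0.25 to 0.08) had intervals that held 0, and the iRhom gene RHBDF1 (-0.31, -0.54 to -0.08) was inside 2-fold with an interval below 0. The genes called lower were those of 2 ADAM17 substrates, HBEGF (-1.58) and AREG (-1.44), the second at -0.74 less its local median. The substrates EREG (-0.51) and TGFA (0.45) were inside 2-fold.

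Hippo pathway genes had 1 of 25 measured members (4%) higher and 2 (8%) lower, near the 5.31% and 5.35% of all measured genes, with a median of -0.22. AMOT, which encodes angiomotin, a scaffold that binds merlin and YAP, had 223 counts in TRPV3-OE and 21 in parental cells, a log2 ratio of 3.35 (2.70 to 4.07) and 10.2-fold higher. The protocadherin genes FAT4 (-1.70) and FAT1 (-1.14) were called lower, with FAT1 at -0.49 less its local median. The kinase genes LATS1 (0.15) and LATS2 (-0.17), the scaffold gene WWC1 (-0.36) and the transcription factor gene TEAD2 (-0.97) were inside 2-fold.

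Crumbs and spectrin partners of the protein 4.1 genes had 2 of 18 measured members (11.1%) higher and 1 (5.56%) lower, against 5.31% and 5.35% of all measured genes. The median was 0.14, but -0.081 with a minimum of 20 summed counts and -0.10 with 500. MPP1, the red cell protein that binds protein 4.1, had 16 counts in TRPV3-OE and 171 in parental cells (log2 ratio -3.47, -4.31 to -2.73). The ankyrin genes ANK1 (111 counts in TRPV3-OE and 35 in parental cells) and ANK2 (73 in TRPV3-OE and 27 in parental cells) had log2 ratios of 1.61 and 1.38, from low counts. The Crumbs gene CRB3 (0.69), its partner PALS1 (-0.57), the spectrin gene SPTAN1 (0.41) and LIN7C (-0.90) were inside 2-fold.

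**Figure D5:**
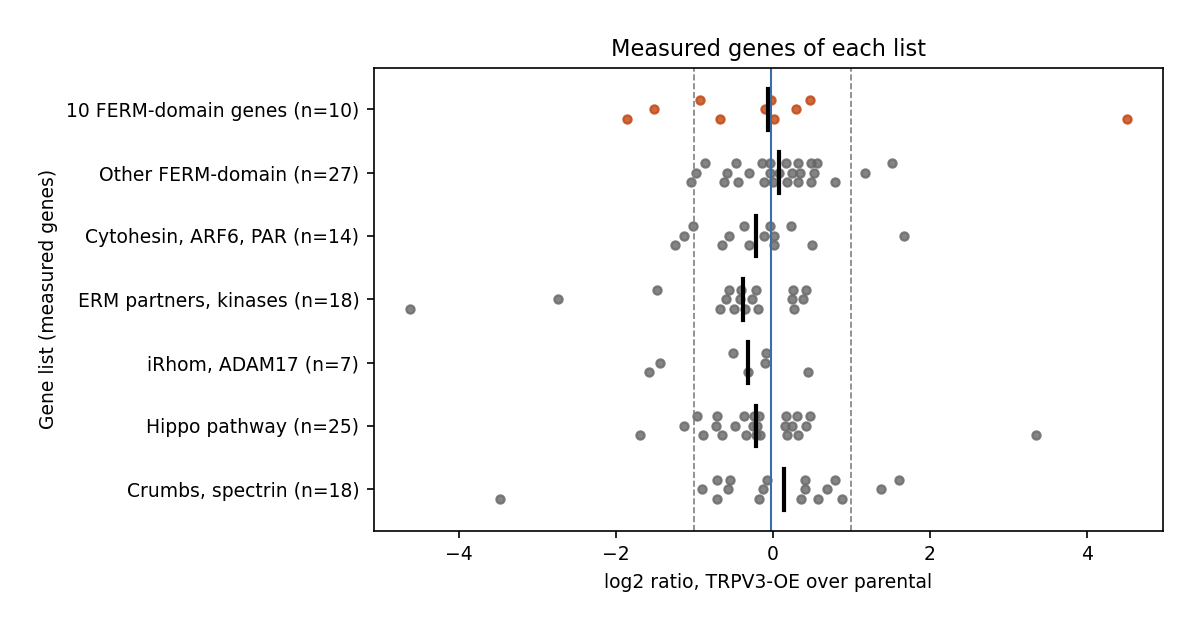
log2 ratio (TRPV3-OE over parental) of the measured genes of each list, with 1 point per gene, a black bar at the list median, dashed lines at 2-fold and a blue line at the median of all measured genes. The 10 FERM-domain genes are in the top row, with FRMD4B at 4.50 on the far right; the farthest points of the other rows are PODXL at -4.62 and AMOT at 3.35.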

How the data were processed

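RNA sequencing of 2 libraries was used, 1 per group, with groups from the genotype label. The authors deposited raw counts of reads per gene, made per the file headers by featureCounts 1.5.0-p3 (reverse-stranded) with Ensembl 87 gene models for GRCh38.p7. Reads with several alignments are left out by default, and the headers set no option that keeps them, so that reads shared with a pseudogene would be missing from MSN, FRMD8 and RDX. The submitters' processing notes also name STAR and DESeq2, with no version. Genes overlapping the 10 on the same strand had 1 count in all.

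Symbols came from a gene name table (56948 of 58051 IDs), and biotypes and transcripts from GENCODE 29. Libraries were scaled by TMM factors (1.02 for TRPV3-OE, 0.981 for parental; edgeR 4.0.16, R 4.3.3). With single libraries no model could be fitted. CPM carry exact Poisson intervals and ratios exact conditional binomial intervals (Clopper-Pearson), with 0.5 in place of 0 counts. TPM used the summed exon lengths in the files. The calls were tested on simulated Poisson counts. These hold counting error only, so that the test cannot say how the calls would hold between cultures. Total-count, DESeq2 1.42.0 and upper-quartile scaling, an added count of 5, other minimums and fold limits, and ratios less the median of the 50 nearest measured genes were tried. Computation used Python 3.11.15 (pandas 2.3.3, numpy 2.4.6, scipy 1.17.1) and plots matplotlib 3.10.9.

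The 10 genes and the lists were chosen with earlier results of these data known. Named besides the 10 genes and TRPV3 are, per list, the 4 measured genes farthest from 0 in log2 ratio, direct partners, and the 5 genes nearest to FRMD4B in ratio. Cell type markers, pseudogenes and other genes sharing sequence, and neighbours of FRMD4B are named as well. FRMPD2, MYO15A, TLN2 and JAK3, below the minimum count, were named after their values were seen, as genes whose intervals left out 0. 181 of 184 listed symbols were matched.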

Additional observations from a re-analysis of the deposited data

How the results depend on the processing

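No paired analysis was possible because there is just 1 library of each line, which also leaves no replicate to omit. Of 50 log2 ratios of the 10 genes under other settings, 41 stayed within their counting interval, 9 moved and 0 of the called ones changed sign. Under the other scalings the median of all measured genes shifted by at most 0.06. FRMD4B ranged from 4.48 to 4.56, and MSN was at -1.18 less its local median. The number of the 10 genes at least 2-fold lower was 4 at a 1.5-fold limit and 0 at a 4-fold limit, where the genes called differ by construction.

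Among all genes, 609 were at least 2-fold higher and 614 lower. These became 1347 and 1121 with a minimum of 1 count, 1094 and 942 with 20, 245 and 323 with 500, 1455 and 1627 at 1.5-fold, and 151 and 159 at 4-fold. The median of the ezrin, radixin and moesin partners was -0.26 less local medians and -0.24 with a minimum of 1 count. That of the iRhom and ADAM17 list was 0.20 less local medians, on the other side of 0, -0.41 with a minimum of 1 and -0.21 with 500. The Hippo median was -0.077 less local medians, and the Crumbs and spectrin median -0.081 with a minimum of 20 and -0.10 with 500, on the other side of 0. From raw counts the shares of EZR, RDX and MSN were 65.9%, 19.5% and 14.6% in TRPV3-OE and 63.5%, 9.78% and 26.7% in parental cells. With the longest coding transcript, chosen after seeing the data, they were 72.6%, 14.8% and 12.6% in TRPV3-OE and 69.6%, 7.38% and 23.0% in parental cells. The order of RDX and MSN was the same under both. FRMD4A, with 77 counts in TRPV3-OE, has the widest interval of the 10 genes.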
